A study of Macaca fascicularis with 8 samples.

Results

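The genes described are 10 hypoxia response genes of the cynomolgus monkey, BNIP3, BNIP3L, CA9, VEGFA, EGLN1, EGLN3, NDRG1, ADM, DDIT4 and PDK1, out of 33121 genes measured in embryonic stem cells (ESCs). They were picked as a set because earlier results of these same data showed changes in opposite directions between dome-shaped and primed ESCs. Their differences between these groups are therefore given as a description, with no test. For each gene the row of the table that carried its symbol was taken, which gave 1 gene (CA9), or else the row whose first protein match with at least 85% identity named its protein, which gave 7 genes. BNIP3L and PDK1 were named only by a later protein match of their rows, at 97.2% and 90% identity. The match of EGLN3 was a hamster protein at 86.6% identity, the lowest of the 10. The row of DDIT4 was named by a camel protein at 92.7% identity, and the row of VEGFA had a query length of only 472 bases.

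When oxygen is plentiful, prolyl hydroxylases encoded by EGLN genes modify the alpha subunits of the hypoxia-inducible factors (HIFs), and the ubiquitin ligase built around VHL then marks these subunits for breakdown. When oxygen is short the subunits escape, pair with ARNT and raise the transcription of genes for glucose use, acid handling, vessel growth, mitochondrial turnover and restraint of growth. The hydroxylases use oxygen, alpha-ketoglutarate and iron, which vitamin C keeps in its reduced state. Several target genes of the HIFs, EGLN1 and EGLN3 among them, also feed back on the pathway, and DDIT4 and VEGFA answer to stress signals other than oxygen as well.

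The series holds 4 libraries of dome-shaped ESCs and 4 of primed ESCs, sequenced from polyadenylated RNA. Dome-shaped ESCs formed domed colonies, tolerated passage as single cells strongly and grew in NHSMV medium, which holds vitamin C, LIF, bFGF, TGF-β1, insulin, the MEK inhibitor PD0325901, the GSK3 inhibitor CHIR99021, the p38 inhibitors SB202190 and SB203580 and the JNK inhibitor SP600125. Primed ESCs formed flat colonies, tolerated such passage weakly and grew in CESM, a mix of PSGro medium and conventional monkey ESC medium. No oxygen tension is recorded for either group, and medium, colony shape and group coincide, so that they cannot be told apart. The labels do not say that libraries came from separate cultures or animals, so p-values measure the spread between these libraries only, which may be technical. The number after CES in the titles is 1 for dome-shaped replicates 1 and 2 and primed replicate 1. It is 2 for dome-shaped replicate 3 and primed replicate 2. It is 3 for dome-shaped replicate 4 and primed replicates 3 and 4. What this number stands for is not stated, so libraries that share it may not be independent. After it, the titles of dome-shaped replicates 1 and 2 differ in a further tag. The titles of dome-shaped replicate 4 and primed replicate 4 share a further tag that no other title holds. What these tags stand for is not stated either, so dome-shaped replicate 4 and primed replicate 4 may be linked. The depth implied by the values was 14400000 to 17680000 reads in dome-shaped and 16360000 to 18080000 reads in primed libraries. Dome-shaped replicate 4 stood nearer to the primed libraries than the other dome-shaped libraries did, with correlations across genes of 0.949 to 0.962 against 0.923 to 0.942; genes are not independent replicates. Levels are RPKM, reads scaled by gene length and library depth, and differences are of means of log2(RPKM + 1), dome-shaped minus primed.

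The 10 genes did not form a block that moved one way. Mean levels were higher in dome-shaped ESCs for 5 genes (BNIP3, EGLN1, VEGFA, NDRG1 and DDIT4) and lower for 5 (CA9, ADM, EGLN3, BNIP3L and PDK1). The groups did not overlap for 3 genes, with BNIP3 higher and CA9 and EGLN3 lower in all 4 dome-shaped libraries, where 22.2% of the 15597 genes tested had groups that did not overlap. For the other 7 genes the ranges of the groups overlapped. All 10 passed the filter on low values, and 4 met limma's threshold of an adjusted p under 0.05, 2 higher (BNIP3 and EGLN1) and 2 lower (CA9 and ADM), beside 14.3% of all genes tested (6.38% higher and 7.96% lower); nothing is read from this, since the genes were chosen on this contrast. Leaving out dome-shaped replicate 2 or 3 made that share 6.98% or 7.23%, and leaving out primed replicate 2, 3 or 4 made it 6.64%, 8.66% or 7.98%. Only BNIP3 and CA9 met it when dome-shaped replicate 1, 2 or 3 or primed replicate 1, 2 or 3 was left out, or with no filter on low values, which made the count 2. The median difference was 0.02 over the 10 genes and 0.03 over all genes tested. In bulk RNA, fewer cells of a kind and less RNA per cell cannot be told apart.

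**Figure D1:**
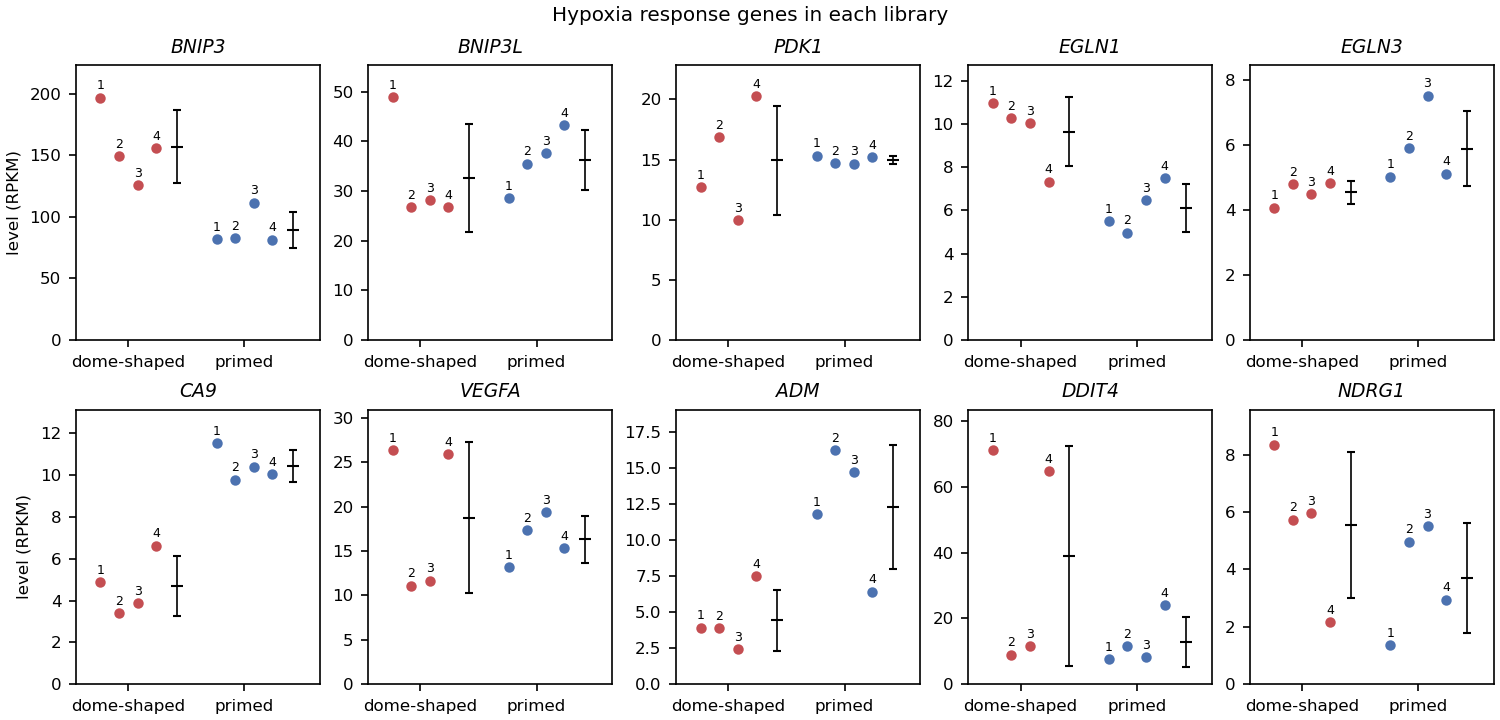
Level in RPKM of each of the 10 hypoxia response genes in the 4 dome-shaped (left, red) and 4 primed (right, blue) libraries, numbered by replicate, with bars for the mean and SD of each group; each panel has its own axis from 0. BNIP3 lies higher and CA9 and EGLN3 lower in every dome-shaped library, and DDIT4 and VEGFA are high in dome-shaped replicates 1 and 4.

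BNIP3 and BNIP3L encode related receptors of the outer mitochondrial membrane that tether mitochondria to the autophagy machinery. BNIP3 stood at 197, 149, 126 and 156 RPKM in dome-shaped replicates 1 to 4, against 82.0, 82.4, 111 and 81.4 RPKM in primed replicates 1 to 4. Every dome-shaped library was above every primed one, and primed replicate 3 stood apart from the other primed libraries. The means were 157 ± 29.6 RPKM in dome-shaped and 89.3 ± 14.7 RPKM in primed ESCs (SD, n = 4 each), a difference of 0.80 on the log2 scale. BNIP3 was the most abundant of the 10 genes, above 93.9% of all genes tested by its mean level.

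Its paralogue BNIP3L did not show this split. Its levels were 48.9, 26.8, 28.1 and 26.8 RPKM in dome-shaped replicates 1 to 4, against 28.5, 35.5, 37.6 and 43.2 RPKM in primed replicates 1 to 4. Dome-shaped replicates 2, 3 and 4 lay below all primed libraries, while dome-shaped replicate 1 was the highest of all 8. The difference was -0.18 with all libraries and -0.38 without dome-shaped replicate 1. Dome-shaped replicate 1 was therefore the highest dome-shaped library for both receptors.

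Most genes that act beside these receptors in mitophagy did not pass the test. Of 10 mitophagy partners tested by limma, 1 fell in dome-shaped ESCs and none rose, with a median difference of -0.20. The 1 that fell was BCL2L1, a survival protein of the BCL2 family to which BNIP3 binds. It averaged 43.7 ± 7.17 RPKM in dome-shaped and 59.3 ± 1.75 RPKM in primed ESCs (SD, n = 4 each; difference -0.44, SE 0.11, limma adjusted p = 0.0303). That call was lost without dome-shaped replicate 2 or without any 1 of the primed libraries, with adjusted p up to 0.0837. The count of 1 was 2 when dome-shaped replicate 1 or 4 was left out.

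EGLN1 and EGLN3 encode HIF prolyl hydroxylases, and EGLN1 is the main oxygen sensor of most cells. EGLN1 stood at 10.98, 10.3, 10.04 and 7.34 RPKM in dome-shaped replicates 1 to 4, against 5.50, 4.96, 6.47 and 7.502 RPKM in primed replicates 1 to 4. Dome-shaped replicates 1, 2 and 3 were above all primed ones, and dome-shaped replicate 4 lay just under primed replicate 4. The means were 9.66 ± 1.60 RPKM in dome-shaped and 6.11 ± 1.12 RPKM in primed ESCs (SD, n = 4 each), a difference of 0.58.

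EGLN3, an isoenzyme that is itself among the classic HIF target genes, lay the other way. It stood at 4.07, 4.79, 4.49 and 4.82 RPKM in dome-shaped replicates 1 to 4, against 5.02, 5.90, 7.52 and 5.12 RPKM in primed replicates 1 to 4. All dome-shaped libraries were below all primed ones, though dome-shaped replicate 4 and primed replicate 1 were close together. Its difference was -0.30, and it shrank to -0.20 without primed replicate 3, the highest library. The row held 176 to 366 reads per library where reads could be recovered.

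Most other genes for the HIFs and for the proteins that modify them or break them down did not pass the test. Of 14 genes tested by limma, 1 rose in dome-shaped ESCs and none fell, and the median difference was -0.08. HIF1A, the broadly expressed alpha subunit, stood at 84.1, 94.1, 87.8 and 87.5 RPKM in dome-shaped replicates 1 to 4, against 104, 91.9, 93.6 and 93.4 RPKM in primed replicates 1 to 4. The groups overlapped and the difference of -0.12 (SE 0.07) did not pass the test (limma adjusted p = 0.285).

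EPAS1, the alpha subunit known as HIF-2 alpha, was scarce. It stood at 0.607, 0.677, 0.601 and 0.842 RPKM in dome-shaped replicates 1 to 4, against 0.851, 3.14, 1.62 and 3.40 RPKM in primed replicates 1 to 4. All dome-shaped libraries were lower, by little in the case of dome-shaped replicate 4 and primed replicate 1, and the gene was below the filter and not tested. The partner subunits did not pass the test: ARNT averaged 14.7 ± 2.54 RPKM in dome-shaped and 15.5 ± 2.27 RPKM in primed ESCs (limma adjusted p = 0.774), and ARNT2 averaged 4.71 ± 1.54 and 4.94 ± 0.973 RPKM in dome-shaped and primed ESCs (limma adjusted p = 0.830; SD, n = 4 each). HIF1AN, the asparagine hydroxylase that blocks HIF activity, averaged 41.4 ± 5.08 RPKM in dome-shaped and 39.2 ± 1.25 RPKM in primed ESCs (SD, n = 4 each; limma adjusted p = 0.669).

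VHL was the gene of this group that rose. It stood at 29.4, 31.6, 28.4 and 24.7 RPKM in dome-shaped replicates 1 to 4, against 16.7, 22.2, 17.3 and 23.2 RPKM in primed replicates 1 to 4. All dome-shaped libraries were above all primed ones, with dome-shaped replicate 4 nearest to them, as for EGLN1. The difference was 0.51 (SE 0.13, limma adjusted p = 0.0318). It lost the call without any 1 of dome-shaped replicates 1, 2 and 3 or primed replicates 1, 2 and 3, with adjusted p up to 0.0873.

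**Figure D2:**
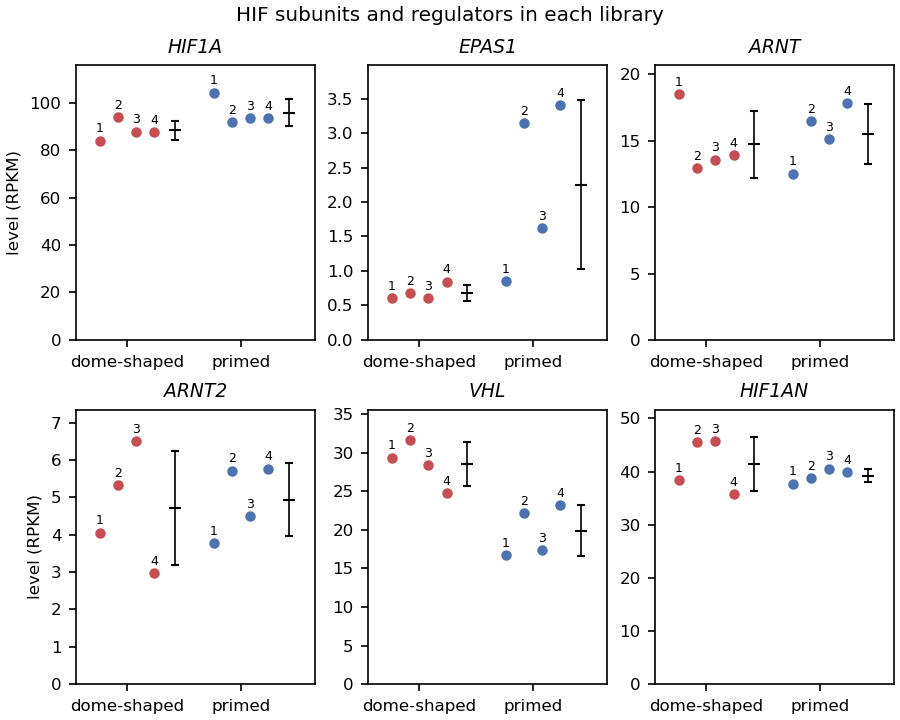
Level in RPKM of the HIF subunit genes HIF1A, EPAS1, ARNT and ARNT2 and of VHL and HIF1AN in the 4 dome-shaped (left, red) and 4 primed (right, blue) libraries, numbered by replicate, with bars for the mean and SD of each group. VHL is higher in every dome-shaped library, EPAS1 lies under 1 RPKM in all dome-shaped libraries and in primed replicate 1, and HIF1A, ARNT, ARNT2 and HIF1AN overlap.

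CA9 encodes a carbonic anhydrase of the cell surface that helps cells to export acid and is a standard marker of hypoxia in tumours. It stood at 4.88, 3.38, 3.87 and 6.62 RPKM in dome-shaped replicates 1 to 4, against 11.5, 9.78, 10.4 and 10.1 RPKM in primed replicates 1 to 4. The primed libraries lay close together, the groups were far apart, and dome-shaped replicate 4 was the dome-shaped library nearest to the primed ones. The means were 4.69 ± 1.43 RPKM in dome-shaped and 10.4 ± 0.767 RPKM in primed ESCs (SD, n = 4 each), a difference of -1.04. Leaving out single libraries moved the difference between -1.19 and -0.92.

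Of 5 other genes for carbonic anhydrases and pH control tested by limma, 1 fell and none rose, with a median difference of -0.62 (-0.34 with no filter and -0.31 with a mean of at least 5 RPKM). CA2, a cytosolic carbonic anhydrase, stood at 3.24, 5.16, 4.14 and 5.89 RPKM in dome-shaped replicates 1 to 4, against 25.7, 8.82, 11.5 and 7.47 RPKM in primed replicates 1 to 4. The groups did not overlap, and primed replicate 1 was far above the other primed libraries (difference -1.23, SE 0.34, limma adjusted p = 0.0403). The call was lost without any 1 of dome-shaped replicates 1, 2 and 3 or primed replicates 2 and 3, with adjusted p up to 0.0941, and with no filter (adjusted p = 0.0717). Without primed replicate 1 the count was 2.

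PDK1 encodes a kinase that switches off pyruvate dehydrogenase and so steers pyruvate away from the mitochondria. It stood at 12.7, 16.9, 9.95 and 20.2 RPKM in dome-shaped replicates 1 to 4, against 15.3, 14.7, 14.6 and 15.2 RPKM in primed replicates 1 to 4. The 4 primed libraries were nearly equal, with a highest level 1.04 times the lowest, while the dome-shaped libraries spread to both sides of them over a 2.04-fold range. The means were 14.9 ± 4.54 RPKM in dome-shaped and 14.96 ± 0.336 RPKM in primed ESCs (SD, n = 4 each). The difference of -0.05 changed sign, to 0.01 without dome-shaped replicate 1 and 0.12 in the absence of dome-shaped replicate 3, so its direction is not fixed by these libraries.

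Of 12 other genes of the pyruvate dehydrogenase complex and its regulators tested by limma, 1 rose in dome-shaped ESCs and none fell, with a median difference of 0.01. DLAT, the acetyltransferase subunit of that complex, averaged 69.2 ± 3.01 RPKM in dome-shaped and 54.9 ± 0.349 RPKM in primed ESCs (SD, n = 4 each; difference 0.33, SE 0.06, limma adjusted p = 0.0111). Its groups did not overlap, and it stayed called when any 1 library was left out. The count of 1 was 2 without dome-shaped replicate 1.

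Of 18 glycolytic hypoxia targets tested by limma, 1 rose, 1 fell and 16 did not pass the test, with a median difference of -0.13. The share called was 11.1%, against 14.3% of all genes tested. LDHA, lactate dehydrogenase A, stood at 462, 404, 344 and 381 RPKM in dome-shaped replicates 1 to 4, against 262, 274, 277 and 232 RPKM in primed replicates 1 to 4. All dome-shaped libraries were above all primed ones (difference 0.60, SE 0.10, limma adjusted p = 0.00704). However, the deposited symbol or protein matches gave this name to 5 rows, so a close copy may share its reads.

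SLC2A1, the glucose transporter GLUT1, lay the other way at 70.2, 93.0, 137 and 90.1 RPKM in dome-shaped replicates 1 to 4, against 186, 203, 219 and 150 RPKM in primed replicates 1 to 4. All dome-shaped libraries were below all primed ones (difference -0.98, SE 0.19, limma adjusted p = 0.0122). Both LDHA and SLC2A1 kept their calls when any 1 library was left out.

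VEGFA encodes the secreted growth factor that drives the sprouting of vessels. It stood at 26.4, 11.1, 11.7 and 25.9 RPKM in dome-shaped replicates 1 to 4, against 13.2, 17.4, 19.4 and 15.4 RPKM in primed replicates 1 to 4. Dome-shaped replicates 1 and 4 were above, and dome-shaped replicates 2 and 3 below, all primed libraries. The means were 18.8 ± 8.53 RPKM in dome-shaped and 16.3 ± 2.65 RPKM in primed ESCs (SD, n = 4 each). The difference of 0.09 became -0.10 without dome-shaped replicate 1 and -0.09 when dome-shaped replicate 4 was left out.

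Most receptors and relatives of VEGFA did not pass the test. Of 6 tested by limma, 2 fell, none rose and 4 did not pass, with a median difference of -0.64. Across all genes tested, 7.96% were called lower. KDR, the main signalling receptor for VEGFA, stood at 2.43, 2.15, 1.78 and 3.12 RPKM in dome-shaped replicates 1 to 4, against 7.21, 9.95, 14.7 and 12.2 RPKM in primed replicates 1 to 4, with no overlap (difference -1.81, SE 0.21, limma adjusted p = 0.00213). PGF, a ligand of the VEGF family, averaged 1.46 ± 0.982 RPKM in dome-shaped and 4.51 ± 1.22 RPKM in primed ESCs (SD, n = 4 each; difference -1.21, SE 0.27, limma adjusted p = 0.0195). The call of PGF was lost without dome-shaped replicate 2, dome-shaped replicate 3 or primed replicate 3, with adjusted p up to 0.0560.

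ADM encodes the precursor of adrenomedullin, a secreted peptide that widens vessels. It stood at 3.90, 3.86, 2.43 and 7.46 RPKM in dome-shaped replicates 1 to 4, against 11.8, 16.2, 14.7 and 6.42 RPKM in primed replicates 1 to 4. Dome-shaped replicate 4 lay above primed replicate 4, and the other libraries of each group were well separated. The means were 4.41 ± 2.14 RPKM in dome-shaped and 12.3 ± 4.31 RPKM in primed ESCs (SD, n = 4 each), a difference of -1.30. With 24 reads in its lowest library (95% exact Poisson interval 15.4 to 35.7, counting error only) and 148 in its highest, ADM was the most thinly covered of the 4 genes whose reads could be recovered. None of the 3 adrenomedullin receptor genes and relatives tested passed limma's adjusted threshold, and 1 had an unadjusted p under 0.05. The receptor component RAMP2 averaged 4.70 ± 2.24 RPKM in dome-shaped and 4.14 ± 1.07 RPKM in primed ESCs (limma adjusted p = 0.876), and RAMP1 averaged 1.29 ± 0.688 RPKM in dome-shaped and 3.28 ± 2.79 RPKM in primed ESCs (limma adjusted p = 0.248; SD, n = 4 each).

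DDIT4, also called REDD1, encodes a brake on the growth kinase mTORC1 that is raised by oxygen shortage and by other stresses. It stood at 71.2, 8.93, 11.5 and 64.8 RPKM in dome-shaped replicates 1 to 4, against 7.67, 11.5, 8.23 and 24.04 RPKM in primed replicates 1 to 4. Dome-shaped replicates 1 and 4 were above all other libraries, and dome-shaped replicates 2 and 3 lay among the primed ones. The highest dome-shaped library was 7.97 times the lowest, the widest range of the 10 genes within a group. The means were 39.1 ± 33.5 RPKM in dome-shaped and 12.9 ± 7.64 RPKM in primed ESCs (SD, n = 4 each). The difference was 1.14, and it was 0.68 without dome-shaped replicate 1 and 0.72 when dome-shaped replicate 4 was left out.

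None of 8 partners of DDIT4, genes of the TSC complex and other nutrient stress regulators, passed limma's adjusted threshold, although all 8 had a higher mean in dome-shaped ESCs and 2 had an unadjusted p under 0.05 (median difference 0.26). Without dome-shaped replicate 2 or primed replicate 4 the count passing was 1. RHEB, the activator of mTORC1 that the TSC complex holds back, averaged 193 ± 22.5 RPKM in dome-shaped and 168 ± 7.83 RPKM in primed ESCs (limma adjusted p = 0.172). TSC2, a subunit of that complex, averaged 29.9 ± 1.68 RPKM in dome-shaped and 28.4 ± 6.51 RPKM in primed ESCs (limma adjusted p = 0.709; SD, n = 4 each).

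The ATF4 pathway is a transcriptional response to amino acid shortage and other stress that also acts on DDIT4. A count of genes with dome-shaped replicates 1 and 4 as the highest of the 8 libraries was made after the values had been seen. The counts are a description only, because the order was read from these same values and the lists were chosen with earlier results known. This order held for 3 of the 10 genes described (BNIP3, VEGFA and DDIT4) and for 5.28% of all genes tested. In the ATF4 pathway it held for 9 of 11 tested genes. The other 2 were PPP1R15A, at 15.6, 17.6, 17.0 and 20.5 RPKM in dome-shaped replicates 1 to 4 against 14.6 to 15.2 RPKM in primed libraries, and VLDLR, at 13.8, 13.7, 7.45 and 22.2 RPKM in dome-shaped replicates 1 to 4 against 14.8 to 24.3 RPKM in primed libraries. Of the 11 genes tested by limma, 2 rose and none fell, with a median difference of 0.85. PSAT1, an enzyme of serine synthesis, stood at 563, 180, 210 and 411 RPKM in dome-shaped replicates 1 to 4, against 160, 125, 124 and 113 RPKM in primed replicates 1 to 4 (difference 1.23, SE 0.33, limma adjusted p = 0.0373). SHMT2, a mitochondrial enzyme that uses serine, stood at 229, 120, 147 and 214 RPKM in dome-shaped replicates 1 to 4, against 93.2, 82.4, 68.5 and 68.6 RPKM in primed replicates 1 to 4 (difference 1.14, SE 0.20, limma adjusted p = 0.00908). Both had dome-shaped replicates 1 and 4 as the highest libraries and no overlap between groups. PSAT1 lost its call without dome-shaped replicate 1, dome-shaped replicate 4 or primed replicate 2, 3 or 4, with adjusted p up to 0.0884, and with no filter (adjusted p = 0.0678). Without dome-shaped replicate 2 the count of 2 became 4.

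Further genes of that pathway were picked for the figure after their values had been seen. CHAC1, an enzyme that degrades glutathione, stood at 32.0, 3.78, 6.64 and 32.3 RPKM in dome-shaped replicates 1 to 4, against 4.93, 3.89, 3.63 and 2.62 RPKM in primed replicates 1 to 4. ASNS, asparagine synthetase, stood at 269, 62.3, 74.2 and 206 RPKM in dome-shaped replicates 1 to 4, against 86.8, 70.0, 66.8 and 58.1 RPKM in primed replicates 1 to 4. As for DDIT4, dome-shaped replicates 1 and 4 were the highest of all libraries and dome-shaped replicates 2 and 3 lay within or near the primed range. Neither gene passed the test (limma adjusted p = 0.106 for CHAC1 and 0.210 for ASNS). What the pattern of these libraries comes from was not tested.

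**Figure D3:**
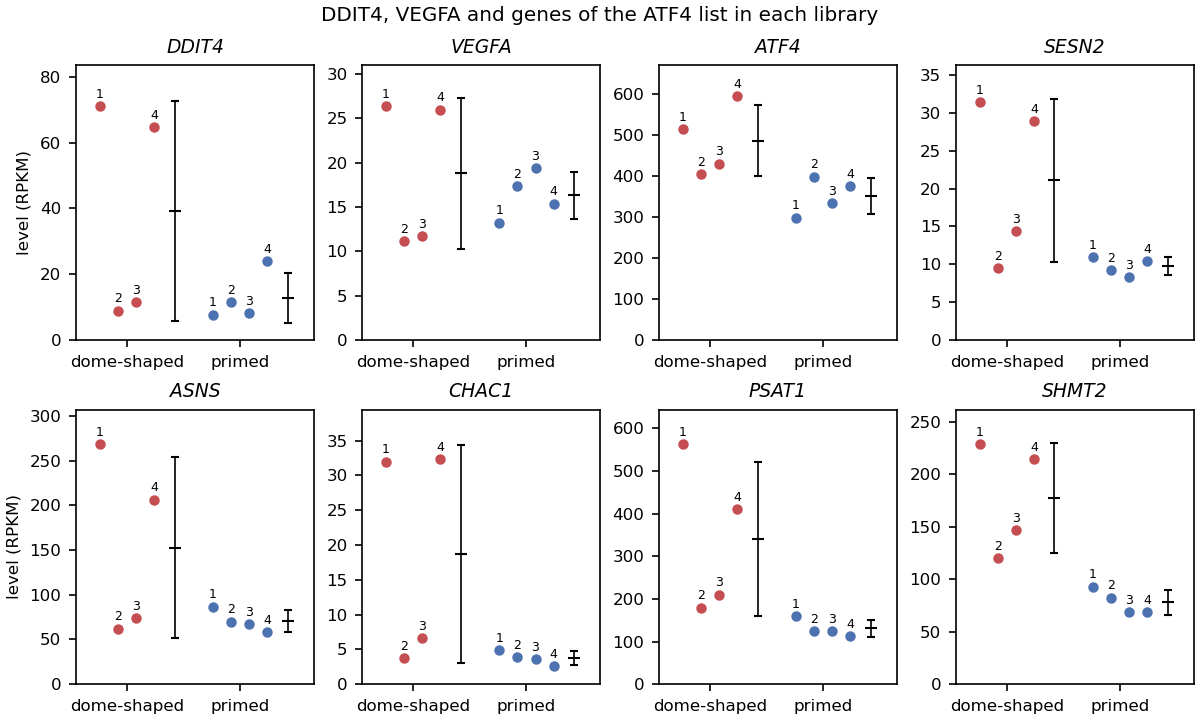
Level in RPKM of DDIT4, VEGFA and 6 genes of the ATF4 list in the 4 dome-shaped (left, red) and 4 primed (right, blue) libraries, numbered by replicate, with bars for the mean and SD of each group. In all 8 panels dome-shaped replicates 1 and 4 are the highest libraries, and the 6 genes from the list include some chosen after their values were seen.

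NDRG1 encodes a stress-induced protein tied to differentiation and restraint of growth. It stood at 8.36, 5.74, 5.96 and 2.15 RPKM in dome-shaped replicates 1 to 4, against 1.36, 4.97, 5.52 and 2.95 RPKM in primed replicates 1 to 4. The groups overlapped, with dome-shaped replicate 4 below 3 of the primed libraries and primed replicate 1 the lowest of all. The means were 5.55 ± 2.56 RPKM in dome-shaped and 3.70 ± 1.91 RPKM in primed ESCs (SD, n = 4 each). The difference of 0.48 ranged from 0.19 without primed replicate 1 to 0.80 without dome-shaped replicate 4. Of the 3 other NDRG genes, all tested by limma, 1 fell and none rose. NDRG4 averaged 15.4 ± 1.52 RPKM in dome-shaped and 25.9 ± 1.49 RPKM in primed ESCs (SD, n = 4 each; difference -0.72, SE 0.10, limma adjusted p = 0.00333), and kept its call when any 1 library was left out. The count of 1 was 2 without primed replicate 1.

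Set side by side, the 10 genes shared no order of the libraries. Among the dome-shaped libraries the highest level was in replicate 1 for 6 genes and in replicate 4 for 4 genes, and never in replicate 2 or 3. No share over all genes was taken for the highest library alone. Dome-shaped replicates 1 and 4 were together the highest dome-shaped libraries for 5 of the 10 genes, beside 20.3% of all genes tested. This was counted after the values had been seen, and nothing is read from it. Dome-shaped replicate 4 lay on the primed side of the other dome-shaped libraries for EGLN1, EGLN3, CA9, ADM and NDRG1, but not for BNIP3, BNIP3L or DDIT4. EGLN1 and ADM ran most nearly opposite to each other over the 8 libraries (Pearson r = -0.934, and -0.800 for deviations from the group means). VEGFA and DDIT4 ran together (r = 0.792, and 0.849 for deviations from the group means). CA9 and ADM had r = 0.874, and 0.555 for deviations. These values rest on 8 libraries that share their 2 groups and are given as a description.

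Across the 7078 genes compared, the gene most like each one by Pearson r over the 8 libraries differed for every one of the 10. It was FEM1B for BNIP3 (r = 0.987), TMEM161A for BNIP3L (r = 0.969), ZNF606 for EGLN1 (r = 0.977) and MEF2D for EGLN3 (r = 0.992). For CA9 it was MDH1 (r = 0.990), for PDK1 TMEM39A (r = 0.955), for VEGFA SAT2 (r = 0.973) and for ADM TPD52L1 (r = 0.956). For NDRG1 it was GPR107 (r = 0.953). For DDIT4 it was PHGDH, the first enzyme of serine synthesis (r = 0.951), which stood at 325, 173, 215 and 340 RPKM in dome-shaped replicates 1 to 4, against 189, 214, 194 and 213 RPKM in primed replicates 1 to 4. With so many genes and 8 libraries, high values of r arise readily, so these names describe a pattern only.

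Beyond the 10 genes, other known hypoxia targets had means to both sides, 20 higher and 19 lower in dome-shaped ESCs. Of these 39 genes tested by limma, 1 rose, 2 fell and 36 did not pass the test, which is 7.69% called, and the median difference was 0.07. P4HA1, a collagen prolyl hydroxylase, averaged 41.8 ± 9.65 RPKM in dome-shaped and 26.2 ± 2.44 RPKM in primed ESCs (SD, n = 4 each; difference 0.63, SE 0.15, limma adjusted p = 0.0242), and its call was lost without primed replicate 1, 3 or 4, with adjusted p up to 0.0636. RAB20, a small GTPase, averaged 4.42 ± 0.832 RPKM in dome-shaped and 12.5 ± 2.79 RPKM in primed ESCs (SD, n = 4 each; difference -1.31, SE 0.17, limma adjusted p = 0.00306). IGFBP3, a binding protein of insulin-like growth factors, averaged 4.95 ± 2.40 RPKM in dome-shaped and 22.1 ± 10.2 RPKM in primed ESCs (SD, n = 4 each; difference -1.92, SE 0.37, limma adjusted p = 0.0122). The count of 3 was 6 without dome-shaped replicate 1 and 7 when dome-shaped replicate 4 was left out.

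**Figure D4:**
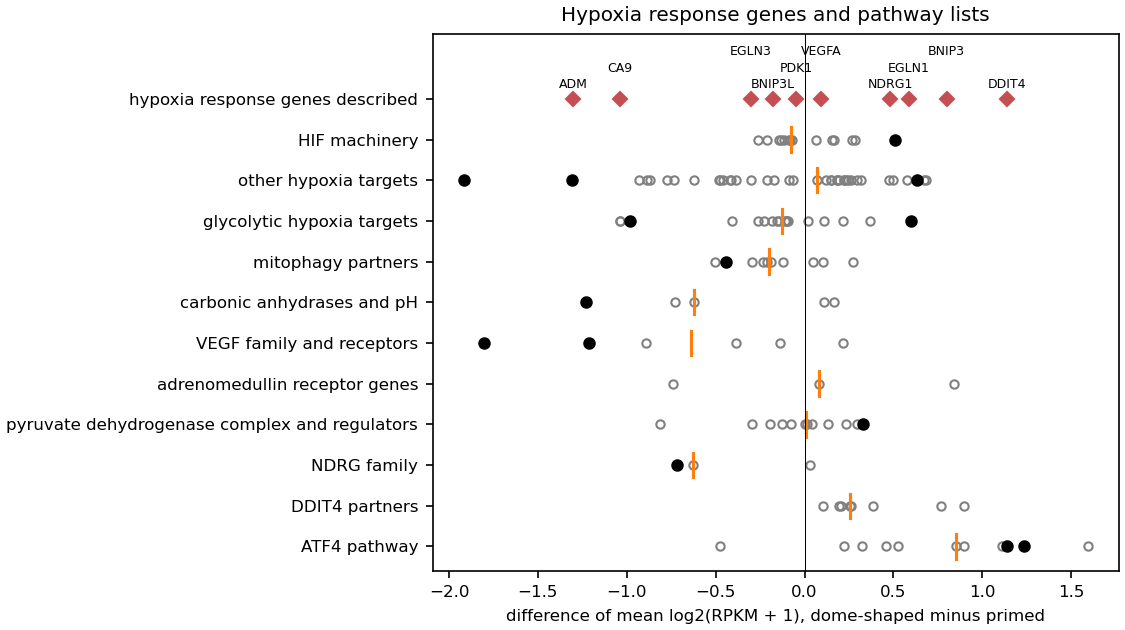
Difference of mean log2(RPKM + 1), dome-shaped minus primed, for the 10 hypoxia response genes (red diamonds, named) and for the tested genes of 11 pathway lists; filled black circles passed limma's adjusted threshold, open grey circles did not, and orange bars mark the list medians. The 10 genes run from -1.30 for ADM to 1.14 for DDIT4, and the list medians run from -0.64 for the VEGF family to 0.85 for the ATF4 pathway.

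Markers of cell identity also differed between the groups, and their part in the values above was not tested. All 8 libraries held high levels of 3 pluripotency genes, SOX2, NANOG and LIN28A. SOX2 stood at 219 to 322 RPKM in dome-shaped and 172 to 273 RPKM in primed libraries. NANOG stood at 53.4 to 113 RPKM in dome-shaped and 116 to 163 RPKM in primed libraries. LIN28A stood at 733 to 954 RPKM in dome-shaped and 964 to 1183 RPKM in primed libraries. Of 10 pluripotency genes tested by limma, 6 fell: LIN28B, TDGF1, DNMT3B, ZFP42, TERF1 and PRDM14. Of these 10 genes, 9 had a lower mean in dome-shaped ESCs. TDGF1 averaged 108 ± 112.5 RPKM in dome-shaped and 396 ± 86.5 RPKM in primed ESCs (SD, n = 4 each). It ran from 21.8 RPKM in dome-shaped replicate 1 to 273 RPKM in dome-shaped replicate 4, against 317 to 515 RPKM in primed libraries. SOX2, NANOG and LIN28A did not pass the test (limma adjusted p = 0.249, 0.0836 and 0.0608). The deposited symbol or protein matches gave the name NANOG to 4 rows. For 10 fibroblast markers, summed levels were 51.7 to 70.9 RPKM in dome-shaped and 70.3 to 256 RPKM in primed libraries. COL1A1 was the largest part of the sum in every library. Of 6 tested, 1 fell. In dome-shaped ESCs, 2 of these 6 (COL3A1 and PDGFRA) had a higher mean and 4 a lower one. For 8 trophoblast markers, the sums were 11.9 to 17.8 RPKM in dome-shaped and 28.4 to 114 RPKM in primed libraries. Of 5 tested, 2 fell, and all 5 had a lower mean in dome-shaped ESCs. The lowest primed sum, in primed replicate 1, was mostly KRT7 at 17.9 RPKM, with TFAP2A at 0.725 RPKM. In primed replicate 4, which had the highest sum, TFAP2A was the largest part at 52.8 RPKM. The levels of TFAP2A overlapped between groups. For 6 endothelial markers the sums were 25.99 to 32.8 RPKM in dome-shaped and 4.197 to 17.2 RPKM in primed libraries, most of it TEK in dome-shaped libraries. All 3 endothelial markers tested had a higher mean in dome-shaped ESCs (median difference 1.00), and 1 of them, TEK, rose. PECAM1, a defining marker below the filter and not tested, averaged 0.452 ± 0.276 RPKM in dome-shaped and 1.15 ± 0.697 RPKM in primed ESCs (SD, n = 4 each). For 6 neural progenitor markers the sums overlapped, at 228 to 332 RPKM in dome-shaped and 204 to 424 RPKM in primed libraries. Nearly all of this was NES, at 220 to 324 RPKM in dome-shaped and 201 to 422 RPKM in primed libraries. Of 2 tested, 1 rose, FABP7, which averaged 4.07 ± 0.866 RPKM in dome-shaped and 0.781 ± 0.156 RPKM in primed ESCs (SD, n = 4 each).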

How the data were processed

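Polyadenylated RNA of 4 dome-shaped and 4 primed ESC libraries was measured. The authors deposited RPKM values, with a query length, protein matches, their percent identity and their alignment score for each gene. TopHat2 2.0.9, HTSeq 0.6.1 and Bowtie2 2.0.6 stand in the submitters' processing notes, and the genome build is not given in the sources used here. Of 33138 rows, 17 were blank and left out. The columns of other samples numbered 0. No strand-specific step is recorded, so overlapping genes on opposite strands cannot be told apart.

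The members and lists were chosen with earlier results of these data known. Symbols came from the deposited table (4302 genes) or from deposited protein matches (score at least 0.95 of the best one, at least 85 percent identity), read through RefSeq accessions (7343) or gene IDs (383) of assembly T2T-MFA8v1.1, quoted symbols (1257) or protein names (46). HIF3A, EGLN2, CITED2, PFKFB3, ATF3, POU5F1, SOX1 and EMCN were paired with no row and are not analysed here. Of several rows for a symbol, one that carried the deposited symbol was preferred, and among equals the one with the highest mean was used.

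The 15597 genes that reached 1 RPKM in 4 or more libraries were compared as log2(RPKM + 1) with limma 3.58.1 in R 4.3.3 (two-sided, with a mean trend and without covariates; Benjamini-Hochberg adjustment across these genes). These differences understate changes of low genes. The test was tried on simulated data with the same scatter for every gene and independent libraries. Nothing about the libraries described here is read from that trial. The depth was read from steps of RPKM times query length: 71.6% to 73.4% of values under 50 reads were whole within 0.01 read, so a count test was not run. Reads were whole in all 8 libraries for BNIP3, EGLN3, ADM and DDIT4 only.

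Genes named were the 10 members, the HIF subunits and regulators, the called genes of each pathway list (at most 5, by adjusted p; 2 by mean level where none was called), the gene most alike each member, and 3 pluripotency genes. Other genes named are ASNS, CHAC1, ATF4, SESN2, PPP1R15A, VLDLR, TEK, PECAM1, NES, FABP7, COL1A1, COL3A1 and PDGFRA, chosen after their values were seen. KRT7 and TFAP2A were chosen in the same way. So were the 6 pluripotency genes that fell. Alternatives were other pseudocounts, filters and scalings, leaving out each library, and a block on the number after CES in the titles; for the members also the sum over all rows of a symbol and a difference of medians.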

Additional observations from a re-analysis of the deposited data

Results flagged for a closer look

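Among 16 genes, the members and the HIF subunits and regulators with a row, each group of 4 libraries was examined for a library far from the others (gap to its nearest neighbour, as a share of the group's range, above Dixon's 95% critical value). Of 32 groups, 3 had one, where chance marks about 1 group in 20. BNIP3 stood at 111 RPKM in primed replicate 3, with a gap of 0.968 of the range. BNIP3L stood at 48.9 RPKM in dome-shaped replicate 1, with a gap of 0.937 of the range. HIF1A stood at 104 RPKM in primed replicate 1, with a gap of 0.857 of the range.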

How the results depend on the processing

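The numbers after CES in the titles did not pair the libraries: deviations of same-numbered libraries from their group means correlated at -0.098 to 0.125. With a replicate block on that number, genes called were 303 higher and 593 lower instead of 995 and 1242; 2 members were called instead of 4, and the called genes numbered 0 in the HIF machinery, 0 among mitophagy partners, 0 among carbonic anhydrases, 1 in the VEGF family, 0 in the pyruvate dehydrogenase list, 1 in the ATF4 list and 2 among other hypoxia targets. VHL, P4HA1, BCL2L1, CA2, PGF, DLAT and PSAT1 lost their calls there, with adjusted p of 0.0523 to 0.0972 in limma.

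When 1 library was left out, genes called ranged from 381 to 1289 higher and from 655 to 1441 lower. Members called ranged from 2 to 4, HIF machinery genes from 0 to 1, other hypoxia targets from 2 to 7, mitophagy partners from 0 to 2, carbonic anhydrases from 0 to 2, VEGF family genes from 1 to 2, pyruvate dehydrogenase genes from 1 to 2, NDRG genes from 1 to 2, DDIT4 partners from 0 to 1 and ATF4 pathway genes from 1 to 4. With no filter, 2 members, 2 mitophagy partners, 0 carbonic anhydrases and 1 ATF4 pathway gene were called. A mean of at least 5 RPKM left 1 VEGF family gene, and quantile normalization and median-of-ratios scaling each gave 2 pyruvate dehydrogenase genes. The causes were not tested.

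No called value reversed, and the small differences of VEGFA and PDK1 changed sign as given above. All 169 member differences under the alternatives moved by no more than the spread between replicates, but most could not have done otherwise. Leaving out 1 of 4 libraries cannot move a difference that far. A changed filter leaves it as it is, and each member had only 1 row to sum. Nothing is therefore read from that count. The list medians moved by no more than the spread in 161 of 164 cases. The exceptions were the carbonic anhydrases as given above and the NDRG family, at -0.45 with the block against -0.62. Under a mean of at least 5 RPKM, NDRG1 and the adrenomedullin receptor genes gave no value. Scaling left the median of all genes between 0.00 and 0.04. Among the 4 members whose reads could be recovered, ADM had the fewest, at 24 in 1 library.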
